A study of Rattus norvegicus with 6 samples.

Results

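Aminoacyl-tRNA synthetases are the enzymes that join each amino acid to its transfer RNA, the step at which the genetic code is read into amino acids. Mammalian cells carry separate sets for the cytosol and for the mitochondrion, both encoded in the nucleus, and several cytosolic enzymes sit together in a large multisynthetase complex held by the scaffold proteins Aimp1, Aimp2 and Eef1e1. Transcription of many cytosolic synthetase genes is known to be raised by Atf4, the transcription factor of the integrated stress response, along with genes of serine, proline and folate metabolism. In heart muscle, beta-adrenergic stimulation drives hypertrophic growth, in which protein synthesis rises.

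The genes described here are the cytosolic and mitochondrial aminoacyl-tRNA synthetases of the rat, taken from a list of 35 gene symbols by matching the RefSeq transcript of each row of the deposited mRNA table to its gene. Of the 35, 30 were found among named rows, 18 of 19 cytosolic and 12 of 16 mitochondrial enzymes, out of 19995 mRNA genes tested. Yars1, Iars2, Lars2, Mars2 and Nars2 had no named row and were not analysed here. Every gene found passed the filter on dim probes, which asked that 3 or more of the 6 arrays show a signal well above background.

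The cells were neonatal rat ventricular cardiomyocytes, isolated from the ventricles of newborn Sprague-Dawley rats 1 to 3 days old and pre-plated to lower the share of fibroblasts. The control group was left untreated, and the other group received 10 µM isoproterenol, a synthetic catecholamine that activates beta-adrenergic receptors, for 24 h in medium without serum. Each group had 3 samples, each on 1 single-colour array, and the series' design text calls them biological replicates. No label says whether they came from separate isolations, so the tests see only sample-to-sample spread, which may in part be technical. The culture protocol describes a primary culture, whereas the sample descriptions speak of several passages and the design text of transfected replicates.

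All 8 cardiomyocyte markers tested were well above background on all 6 arrays, from Myh6 and Tnnt2 to Nkx2-5. Their summed level, in multiples of each array's 75th-percentile signal, was 1350 to 1600 in control and 1640 to 2640 with isoproterenol, and 1 of the 8, Myh6, rose (1.23 over all arrays and 0.82 within slide 1, where it was not called). The same sum over all genes tested was 142000 to 148000 in control, 158000 on the isoproterenol array of slide 1 and 224000 to 235000 on those of slide 2. Markers of other cells were also detected, and their calls stand beside 10.1% of all genes called higher and 5.85% called lower. Of 8 fibroblast markers 4 fell (Lum, Postn, Col3a1 and Tcf21) and none rose. Within slide 1 these 4 changed by -1.54, -0.93, -0.92 and -0.81. Col1a2 and Col1a1 went the other way, by 0.65 and 0.31 over all arrays, though neither passed. The summed level of the 8 was 152 to 161 in control and 127 to 168 with isoproterenol. Of 5 smooth muscle and pericyte markers Acta2 and Tagln rose, with summed levels of 83.3 to 149 in control, 216 on the isoproterenol array of slide 1 and 440 to 497 on slide 2. Within slide 1 their changes were 1.16 instead of 1.91 and 1.03 instead of 1.77, and neither was called (limma, adjusted p = 0.319 and 0.0811). Of 6 endothelial markers Kdr fell, with summed levels of 15.1 to 16.9 and 14.2 to 15.6. Of 4 leukocyte markers Cd14 rose, though not within slide 1 (limma, adjusted p = 0.0901), with summed levels of 9.28 to 13.7 and 11.1 to 14.4. Changes above 0 were found in 3 of the 5 smooth muscle and pericyte, 2 of the 6 endothelial and 2 of the 4 leukocyte markers. Each marker tested was well above background on at least 1 array of each group, and the part of these cells in the synthetase values was not tested. In such a culture fewer cells of a type and less RNA per cell cannot be told apart.

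The arrays lay on 2 slides. Slide 1 held control replicates 1 to 3 and isoproterenol replicate 1, and slide 2 held isoproterenol replicates 2 and 3. On slide 1 between 97.6% and 99.7% of mRNA probes were well above background, and on slide 2 61.1% and 70.7%. Because slide and treatment partly coincide, values within slide 1 are given beside the main results. Control replicate 1 also stood apart from control replicates 2 and 3 in the cytosolic synthetase genes, and the counts of calls are given with and without it. The precision of every value is limited by the number of arrays.

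Cytosolic synthetase mRNAs were on the whole higher with isoproterenol. Of 18 genes 7 rose, none fell and 11 did not pass the test, at a background of 10.1% of all genes called higher and 5.85% called lower (limma's moderated test, two-sided, adjusted over all genes). The median log2 change of the 18 was 0.86, against 0.07 over all genes tested, and 15 of the 18 changes were above 0. In 12 of the 18 every isoproterenol array was above every control array, which held for 25.6% of all genes. The median was above 0 under each of 21 other ways of processing the data, from 0.59 to 1.1. The count of 7 depended on single arrays. Without control replicate 2 or 3, or without isoproterenol replicate 2 or 3, none of the 18 was called by limma, though 8 to 11 had an unadjusted p under 0.05 and the median stayed between 0.73 and 0.82. In these 4 fits 1.35%, 0.885%, 3.44% and 2.14% of all genes were called higher. Without isoproterenol replicate 1, where slide and treatment cannot be told apart, 11 rose and Qars1 and Sars1 fell, at a background of 29.3% called higher and 22.6% called lower.

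With arrays scaled on probes detected on all of them, the median of all genes moved to -0.17 and that of the cytosolic enzymes to 0.62. With a normexp background correction the 2 medians were 0.37 and 0.74. The split of all calls moved with these choices, from 2010 higher and 1170 lower to 1363 and 1961 with the first and 2092 and 745 with the second.

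**Figure D1:**
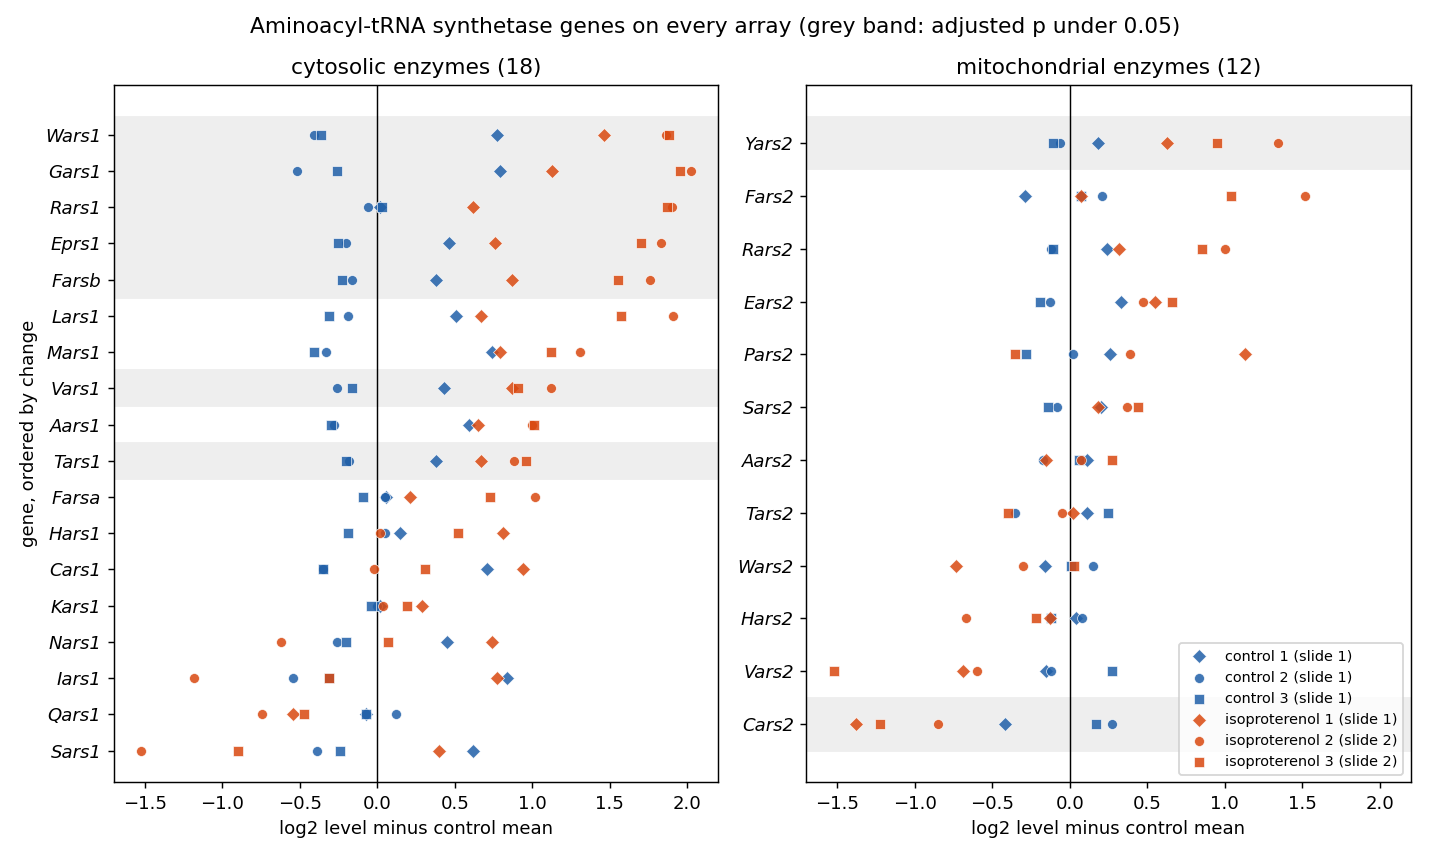
Level of each synthetase gene on each of the 6 arrays, as log2 minus the mean of the 3 control arrays, for 18 cytosolic and 12 mitochondrial enzymes ordered by change. Blue marks are control arrays, orange marks isoproterenol arrays, diamonds the replicate numbered 1, and grey bands the genes with an adjusted p under 0.05. In most of the upper cytosolic rows, Rars1 apart, control replicate 1 (blue diamonds) lies between the other controls and the isoproterenol arrays, and isoproterenol replicate 1 (orange diamonds) below the 2 isoproterenol arrays of slide 2.

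Wars1, the cytosolic tryptophanyl-tRNA synthetase (NM_001013170), had the largest rise. Its level, as log2 relative to the array's 75th percentile, was 2.49, 1.31 and 1.36 on the control arrays and 3.18, 3.58 and 3.60 on the isoproterenol arrays. The groups did not overlap, and control replicate 1 was the highest of the controls. The change was 1.73 ± 0.35 (SE, n = 3 per group; limma, adjusted p = 0.0213), which is 3.32-fold. Gars1, which charges glycine tRNAs of both the cytosol and the mitochondrion from one gene (NM_001271139), was at 4.48, 3.17 and 3.43 in control and at 4.82, 5.71 and 5.64 with isoproterenol. Here too control replicate 1 lay far above the other controls, and isoproterenol replicate 1 was nearer to it than to the other isoproterenol arrays. The change of Gars1 was 1.70 ± 0.40 (SE, n = 3 per group; limma, adjusted p = 0.0351), or 3.24-fold.

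The arginyl enzyme Rars1 (NM_001105777) differed from these in its controls, which were tight at 5.51, 5.43 and 5.52. With isoproterenol it was at 6.11, 7.39 and 7.36, so the array of slide 1 rose far less than those of slide 2. Its change was 1.47 ± 0.36 (SE, n = 3 per group; limma, adjusted p = 0.0374). Eprs1 (NM_001024238), the fused glutamyl-prolyl enzyme of the multisynthetase complex, was at 4.51, 3.85 and 3.80 in control and 4.81, 5.88 and 5.75 with isoproterenol. That is a change of 1.42 ± 0.34 (SE, n = 3 per group; limma, adjusted p = 0.0368). The groups did not overlap, with control replicate 1 just below isoproterenol replicate 1.

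Phenylalanyl-tRNA synthetase is built from an alpha subunit, Farsa, and a beta subunit, Farsb. Farsb (NM_001004252) was at 4.69, 4.15 and 4.08 in control and 5.18, 6.07 and 5.86 with isoproterenol, a change of 1.40 ± 0.29 (SE, n = 3 per group; limma, adjusted p = 0.0244). Farsa was at 0.93, 0.92 and 0.78 in control and 1.08, 1.89 and 1.60 with isoproterenol. Its groups did not overlap either, but its change of 0.65 ± 0.24 (SE) did not pass (limma, adjusted p = 0.10).

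The other members past the threshold were the valyl enzyme Vars1 and the threonyl enzyme Tars1. Vars1 (NM_053292) was at 2.25, 1.56 and 1.66 in control and 2.69, 2.94 and 2.73 with isoproterenol. Tars1 (NM_001006976) was at 2.33, 1.77 and 1.75 in control and 2.62, 2.83 and 2.91 with isoproterenol. In both genes the isoproterenol arrays of the 2 slides lay close together, and control replicate 1 was the control nearest to them. The changes were 0.96 ± 0.23 for Vars1 and 0.83 ± 0.22 for Tars1 (SE, n = 3 per group; limma, adjusted p = 0.0354 and 0.0461).

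Of the 11 cytosolic genes that did not pass, 8 had changes above 0. The leucyl enzyme Lars1 was nearest to the threshold, at 1.38 ± 0.37 (SE; limma, adjusted p = 0.0503). The methionyl enzyme Mars1 followed at 1.07 (adjusted p = 0.0738 by limma) and the alanyl enzyme Aars1 at 0.88 (adjusted p = 0.0757 by limma), and in all 3 of these the groups did not overlap. Within slide 1 their changes were 0.67, 0.78 and 0.65. Changes for Hars1, Cars1, Kars1 and Nars1, which charge histidine, cysteine, lysine and asparagine tRNAs, lay between 0.07 and 0.44. Nars1 was measured by 2 probes, whose changes were 0.07 and 0.15. Kars1, which like Gars1 serves both compartments, had the tightest controls of the 18 genes (SD 0.03, n = 3), at 4.86, 4.84 and 4.80, and was at 5.13, 4.88 and 5.03 with isoproterenol.

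The 3 cytosolic genes with changes below 0 were Sars1, Qars1 and Iars1. Qars1, the glutaminyl enzyme of the complex, was at 4.63, 4.82 and 4.63 in control and 4.16, 3.96 and 4.23 with isoproterenol, so every isoproterenol array was below every control. Its change was -0.58 ± 0.17 (SE; limma, adjusted p = 0.0596), and it passed as lower in 6 of the 21 alternatives. The seryl enzyme Sars1 was at 3.66, 2.65 and 2.80 in control, 3.44 on the isoproterenol array of slide 1, and 1.52 and 2.14 on those of slide 2. The slides thus disagree in direction for Sars1, whose change was -0.67 ± 0.52 over all arrays (limma, adjusted p = 0.373) and 0.40 within slide 1. The isoleucyl enzyme Iars1 was dim, at -0.94, -2.32 and -2.09 in control and -1.01, -2.96 and -2.09 with isoproterenol, and on 1 isoproterenol array it was not well above background. Its groups overlapped, and its change was -0.24 ± 0.56 (SE; limma, adjusted p = 0.779) over all arrays but 0.77 within slide 1.

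Changes of enzymes inside and outside the multisynthetase complex overlapped in range. The counts over all arrays that follow stand beside 10.1% of all genes called higher and 5.85% called lower. Among 7 genes of the complex in the list, which are Eprs1, Iars1, Kars1, Lars1, Mars1, Qars1 and Rars1, 2 rose with a median change of 1.07. Among the 11 others 5 rose with a median of 0.83. The lowest and highest changes were -0.58 and 1.47 in the complex and -0.67 and 1.73 outside it. Within slide 1 none was called in either set, and the medians stood in the other order, at 0.67 in the complex and 0.80 outside it. Without control replicate 1 they were 1.44 with 1 rise and 1.02 with 6, at a background of 4.23% of all genes called higher. Split by structural class over both compartments, with the fused Eprs1 counted in class I, 5 of 15 class I enzymes rose and 1 fell (median 0.72), and 3 of 15 class II enzymes rose (median 0.39); within slide 1 none was called, with medians of 0.62 and 0.40.

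Within slide 1, isoproterenol replicate 1 was above the mean of the 3 controls in 17 of the 18 cytosolic genes, with a median change of 0.75 against 0.11 over all genes. None of the 18 was called there (limma, adjusted p between 0.0780 and 0.572), where 5.21% of all genes were called, and 6 of the 18 had an unadjusted p under 0.05. The lone isoproterenol sample is there assumed to vary like the controls. With slide as a fixed block none was called either (adjusted p between 0.0631 and 0.620), at a background of 7.27%, although 6 had an unadjusted p under 0.05. Of the 7 genes that rose over all arrays, the within-slide changes were 1.46 for Wars1, 1.12 for Gars1, 0.88 for Farsb, 0.87 for Vars1, 0.76 for Eprs1, 0.67 for Tars1 and 0.62 for Rars1. The 7 directions were kept, and for Rars1, Eprs1, Farsb and Gars1 the value was lower than over all arrays by more than 1.5 times.

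Control replicate 1 was the highest of the 3 controls in 16 of the 18 cytosolic genes (88.9%), which held for 41.0% of all genes. Its median excess over the mean of control replicates 2 and 3 was 0.68 on the log2 scale, against 0.01 over all genes and 0.16 in the mitochondrial enzymes. The excess was largest in Iars1 (1.27), Gars1 (1.17), Wars1 (1.16), Mars1 (1.11) and Cars1 (1.06), and near 0 in Rars1 (0.03), Kars1 (0.04) and Farsa (0.08). Genes of the Atf4 programme, described below, showed the same excess, with a median of 0.70. Its source was not tested.

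Without control replicate 1, the median cytosolic change was 1.1 and 7 genes rose, at a background of 4.23% of all genes called higher. They were Wars1 (2.12 ± 0.23), Gars1, Farsb, Mars1, Aars1, Vars1 and Tars1, so Mars1 and Aars1 passed in place of Rars1 and Eprs1. With slide as a fixed block as well, 9 rose, at a background of 3.90%. They were those 7 with Eprs1 and Cars1, and Wars1 was at 1.85 (limma, adjusted p = 0.0236). With the 2 remaining controls and the isoproterenol array of slide 1 alone, 12 of the 18 rose, at a background of 6.69%; the same assumption holds. In that comparison Iars1, below 0 over all arrays, was called higher at 1.19.

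**Figure D2:**
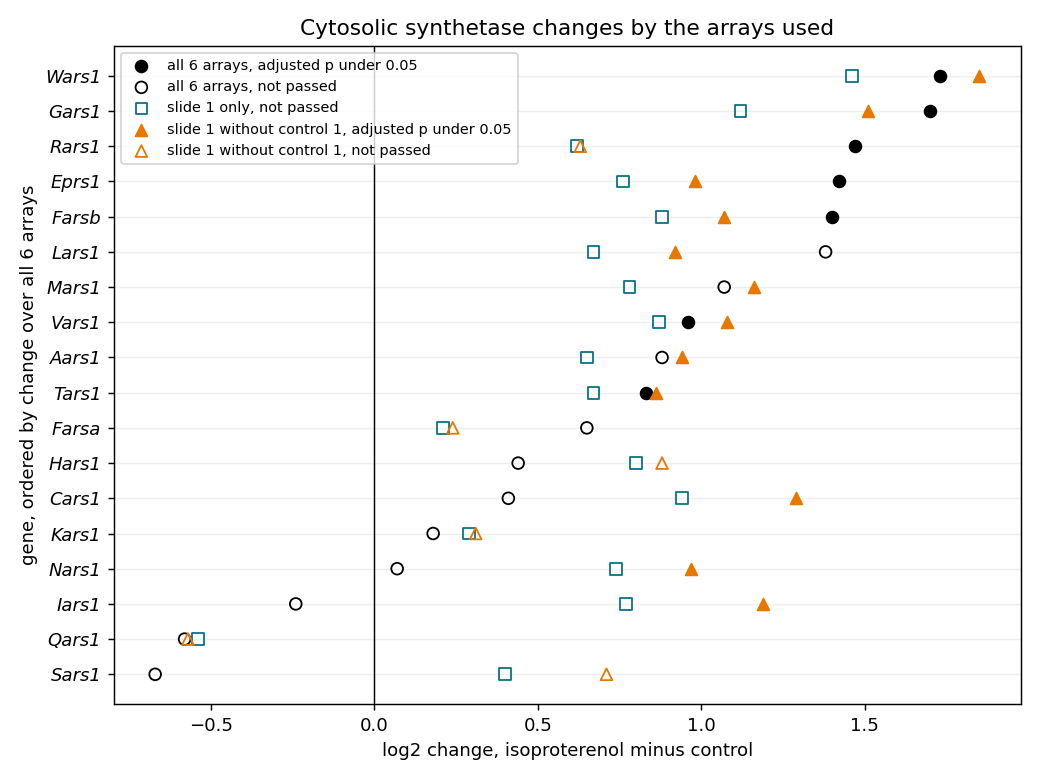
Log2 change of each of the 18 cytosolic synthetase genes by the arrays used, which were all 6, the 4 of slide 1, or the 3 of slide 1 without control replicate 1. Filled marks have an adjusted p under 0.05 by limma. In both choices within slide 1 a single isoproterenol array stands against the controls. Control replicate 1 was left out because it was high in these same genes, which favours larger changes. Qars1 is below 0 in all 3 choices, and Sars1 and Iars1 change side.

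Mitochondrial enzymes showed no common direction. Of 12 genes 1 rose, 1 fell and 10 did not pass, with a median change of 0.20, and 7 of the 12 changes were above 0. These shares can be read against the 10.1% and 5.85% of all genes called higher and lower. Within slide 1 the median was 0.05, and with arrays scaled on probes detected on all of them it was -0.04.

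Yars2, which charges mitochondrial tyrosine tRNA (NM_001009627), was the gene that rose. It was at 2.79, 2.55 and 2.50 in control and 3.24, 3.95 and 3.56 with isoproterenol, with no overlap. Its change was 0.97 ± 0.23 (SE, n = 3 per group; limma, adjusted p = 0.0339), and 0.62 within slide 1 (adjusted p = 0.115 by limma). Leaving out any single array but isoproterenol replicate 1 ended this call (limma, adjusted p between 0.0777 and 0.143). Cars2, the mitochondrial cysteinyl enzyme (NM_001177684), was the gene that fell. It was at -0.56, 0.13 and 0.03 in control and -1.52, -0.99 and -1.36 with isoproterenol. All 3 isoproterenol arrays were below all controls, the one of slide 1 lowest. The change was -1.15 ± 0.25 (SE, n = 3 per group; limma, adjusted p = 0.0275), a level 2.22-fold lower. Within slide 1 Cars2 was at -1.38 (limma, adjusted p = 0.0793), with the block at an adjusted p of 0.0648 by limma, and without control replicate 1 at -1.36 (limma, adjusted p = 0.0336). Its call ended without control replicate 2 or 3 or isoproterenol replicate 3 (limma, adjusted p = 0.117, 0.124 and 0.0958).

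Among mitochondrial genes that did not pass, the largest changes above 0 were those of Fars2 and Rars2. Fars2, the single-chain mitochondrial phenylalanyl enzyme, was at 2.98, 3.48 and 3.34 in control and 3.34, 4.79 and 4.31 with isoproterenol, and its groups overlapped. Its change was 0.88 over all arrays and 0.07 within slide 1. The arginyl Rars2 was at 2.85, 2.49 and 2.50 in control and 2.93, 3.61 and 3.46 with isoproterenol, which do not overlap, and its change of 0.72 became 0.32 within slide 1. In both genes the difference thus came mostly from the 2 arrays of slide 2.

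The largest changes below 0 after Cars2 were in the valyl Vars2 and the histidyl Hars2. Vars2 was at -2.06, -2.03 and -1.64 in control and -2.60, -2.51 and -3.43 with isoproterenol, and was well above background on 1 of the 3 isoproterenol arrays. Its change was -0.94 ± 0.29 (SE; limma, adjusted p = 0.0681), and -0.69 within slide 1. Hars2 was at -0.44, -0.40 and -0.60 in control and -0.61, -1.15 and -0.70 with isoproterenol, with groups that just failed to overlap and a change of -0.34. The remaining 6 genes, Ears2, Pars2, Sars2, Aars2, Tars2 and Wars2, had changes between -0.33 and 0.56, and only in Ears2 did the groups not overlap. Pars2 and Wars2 were well above background on 1 of 3 isoproterenol arrays each, so their levels on slide 2 are at the edge of detection.

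For 12 pairs of a cytosolic and a mitochondrial gene charging the same amino acid, the cytosolic change was the higher one in 10. In 7 pairs the difference between the 2 genes was larger on every isoproterenol array than on every control array, and in 5 the groups overlapped. Among single genes 25.6% had every isoproterenol array above every control array, and no such share was computed for other pairs. The glutamate pair separated narrowly, at 0.21 on isoproterenol replicate 1 against 0.13 on control replicate 1. The gap was largest for tryptophan, where Wars1 and Wars2 moved apart by 2.06, then for valine at 1.90 (Vars1 and Vars2) and cysteine at 1.56 (Cars1 and Cars2). Within slide 1 these gaps were 2.19, 1.56 and 2.32. Wars2, Vars2 and Pars2 were each well above background on 1 of 3 isoproterenol arrays, so gaps with them rest partly on values at the edge of detection. Over the alternatives the change of Wars2 ran from -0.80 to 0.42 and that of Vars2 from -1.18 to -0.09. The size of these gaps thus depends on the processing. For cysteine the groups overlapped, since control replicate 1 already showed a gap of 1.13 over the control mean. The 2 pairs with a lower cytosolic change were serine at -1.0 (Sars1 and Sars2) and the phenylalanyl alpha subunit at -0.23 (Farsa and Fars2), and in slide 1 both were above 0, at 0.22 and 0.14. Proline (Eprs1 and Pars2) turned the other way, from 1.03 over all arrays to -0.38 in slide 1, and glutamate (Eprs1 and Ears2) went from 0.86 to 0.21.

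**Figure D3:**
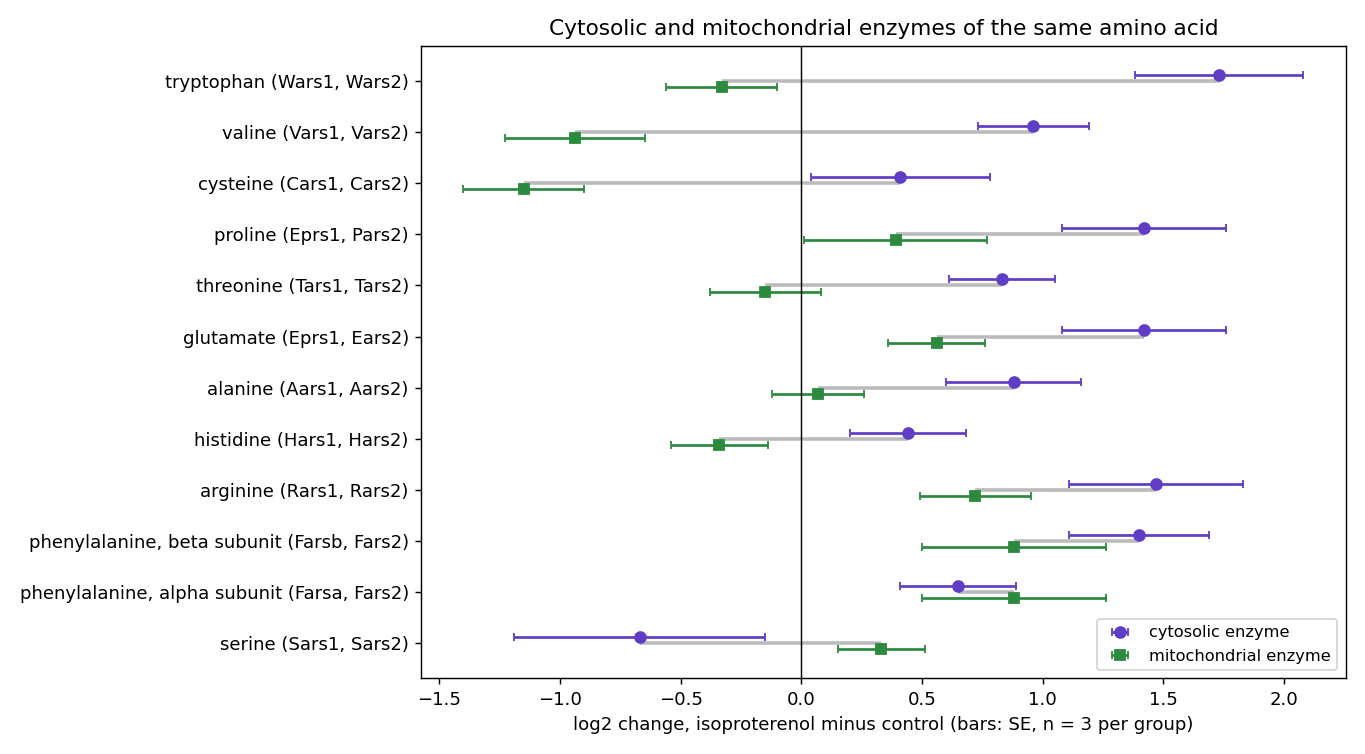
Log2 change of the cytosolic (circles) and the mitochondrial (squares) enzyme of each amino acid, with the SE of the fit and n = 3 per group, for 12 pairs ordered by the difference of the 2 changes. The cytosolic mark lies to the right in 10 pairs, by 2.06 for tryptophan, and to the left for serine and the phenylalanyl alpha subunit. Eprs1 and Fars2 stand in 2 pairs each. Wars2, Vars2 and Pars2 were well above background on 1 of 3 isoproterenol arrays each.

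Promoters were read from RefSeq (assembly GRCr8) as the 250 bases before and 50 after each gene's start, which matched 16 of the 18 cytosolic genes (all but Gars1 and Rars1) and all 12 mitochondrial ones. The core TGATGNAA, the core of composite Atf4 and C/EBP elements, was searched on either strand (as TTNCATCA on the other). It was present in 6 of the 16 cytosolic promoters, those of Aars1, Cars1, Iars1, Mars1, Nars1 and Tars1, and in 0 of the 12 mitochondrial ones, against 3.98% of 33469 promoters in the table. The 160 bases from 130 before to 30 after the start are printed for 5 of these 6 to show where the core lies, and for Wars1, the gene with the largest rise, in which it was not found. Capitals mark the core, and each sequence reads 5′ to 3′ on the strand of the gene. They are chr19:55908352-55908511 (plus strand) for Aars1, chr1:208225340-208225499 (minus) for Cars1, chr17:15193623-15193782 (minus) for Iars1, chr7:65023724-65023883 (minus) for Mars1, chr2:62114773-62114932 (minus) for Tars1 and chr6:133571616-133571775 (minus) for Wars1.
Aars1: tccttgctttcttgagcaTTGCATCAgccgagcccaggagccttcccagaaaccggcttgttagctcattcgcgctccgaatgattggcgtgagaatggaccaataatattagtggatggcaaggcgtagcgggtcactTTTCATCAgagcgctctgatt
Cars1: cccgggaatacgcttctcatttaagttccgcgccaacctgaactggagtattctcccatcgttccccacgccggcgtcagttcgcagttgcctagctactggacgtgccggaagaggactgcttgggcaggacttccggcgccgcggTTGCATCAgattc
Iars1: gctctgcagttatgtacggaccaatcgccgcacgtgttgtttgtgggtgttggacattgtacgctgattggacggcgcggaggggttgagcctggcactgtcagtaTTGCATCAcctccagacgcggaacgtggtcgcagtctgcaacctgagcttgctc
Mars1: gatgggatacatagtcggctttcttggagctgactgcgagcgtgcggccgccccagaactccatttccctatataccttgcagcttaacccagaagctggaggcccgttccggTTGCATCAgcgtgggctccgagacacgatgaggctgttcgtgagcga
Tars1: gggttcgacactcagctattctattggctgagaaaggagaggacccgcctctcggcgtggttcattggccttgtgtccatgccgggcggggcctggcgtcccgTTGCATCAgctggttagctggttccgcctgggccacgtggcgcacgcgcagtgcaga
Wars1: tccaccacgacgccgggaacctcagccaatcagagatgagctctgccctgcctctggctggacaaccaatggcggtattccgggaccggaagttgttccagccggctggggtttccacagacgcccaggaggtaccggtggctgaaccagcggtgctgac

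Counted with the start as position 0, the core begins at -27 in Tars1, -24 in Iars1, -17 in Mars1, -14 in Nars1 and 17 in Cars1. Aars1 holds it at -112 and again at 9. In these windows 5 of the 6 genes hold the letters TTGCATCA and Nars1 their reverse complement TGATGCAA; the other match in Aars1 reads TTTCATCA. One of the 6, Tars1, rose over all arrays, with a median change of 0.62 for the 6 and 0.81 for the 10 cytosolic genes without the core. In slide 1 the medians were 0.76 and 0.71. The excess of control replicate 1 had a median of 0.97 in the 6 with the core and 0.61 in the 10 without. A match of letters is a description of the sequence and not of a bound site.

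The full cAMP response site TGACGTCA, searched because isoproterenol raises cAMP, was in none of the 28 promoters, against 1.83% of all. The E-box CACGTG was in 5 cytosolic promoters (Aars1, Farsb, Iars1, Tars1 and Vars1) and 1 mitochondrial one (Ears2), against 6.42% of all. The Nrf1 core GCGCANGC was in 5 cytosolic (Eprs1, Farsb, Sars1, Tars1 and Vars1) and 4 mitochondrial promoters (Pars2, Rars2, Vars2 and Wars2), against 8.98%. Hars1 and Hars2 lie head to head with starts 144 bases apart, so their windows share 243 bases. From this shared stretch the 2 genes differed in direction, at 0.44 for Hars1 and -0.34 for Hars2, and neither passed.

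Proteins that work beside the synthetases were counted from lists of the same pathway. Among 10 synthetase partners 3 rose and none fell, with a median change of 0.62, beside the 10.1% of all genes called higher. The 3 are the non-catalytic scaffolds of the multisynthetase complex. Eef1e1 was at 1.69, 1.31 and 1.48 in control and 2.23, 2.74 and 2.72 with isoproterenol, a change of 1.07 ± 0.21 (SE; limma, adjusted p = 0.0214). Aimp2 changed by 0.99 ± 0.26 and Aimp1 by 0.70 ± 0.18 (SE; limma, adjusted p = 0.0478 and 0.0421). In all 3 the groups did not overlap, and in slide 1 their changes were 0.73, 0.50 and 0.55. None of the 3 was called there (limma, adjusted p = 0.105, 0.238 and 0.125), and none without control replicate 1 (limma, adjusted p = 0.0512, 0.0916 and 0.0881). Within slide 1 the median of the 10 was 0.45 and Pstk, a kinase of selenocysteine tRNA charging, was called lower (-1.19; limma, adjusted p = 0.0447), against -0.68 over all arrays (limma, adjusted p = 0.107).

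Among 7 genes listed under cytosolic elongation factors 1 rose and 1 fell, with a median change of -0.07. These counts stand beside 10.1% of all genes called higher and 5.85% called lower. Eif5a rose (0.80 ± 0.15, adjusted p = 0.0189 by limma). Eef2k, which is not a factor but the kinase that inhibits elongation factor 2, fell (-1.25 ± 0.23, adjusted p = 0.0174 by limma). Neither was called within slide 1, at 0.78 and -0.96 (limma, adjusted p = 0.0584 and 0.110), and without control replicate 1 only Eef2k was. Without that replicate 585 of 19995 genes were called lower. Among 9 mitochondrial translation factors none rose and 1 fell, with a median of -0.35, beside the 5.85% of all genes called lower. The gene that fell was the initiation factor Mtif2 (-1.15 ± 0.23, adjusted p = 0.0213 by limma). Mtif2 was well above background on 1 of 3 isoproterenol arrays. It was not called within slide 1 (-0.74; limma, adjusted p = 0.0903) or without control replicate 1 (limma, adjusted p = 0.0781), and its change was as small as -0.10 in the alternatives.

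Among 15 genes of tRNA maturation 3 rose, among them Pus1 (1.28) and Trmt10c (0.87), and none fell, with a median of 0.14, beside the 10.1% of all genes called higher. Pus1 makes pseudouridine in tRNA, and Trmt10c belongs to mitochondrial RNase P. Within slide 1 none rose, with a median of -0.01, 0.88 for Pus1 and 0.45 for Trmt10c (limma, adjusted p = 0.111 and 0.153). Hsd17b10, another subunit of mitochondrial RNase P, was called lower there (-1.03; limma, adjusted p = 0.0475), against -0.70 over all arrays. Without control replicate 1 the rise of Pus1 alone was called, at a background of 4.23% of all genes called higher.

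The Atf4 programme, a list of amino acid metabolism and stress response genes without synthetases, was the list with the largest share of rises. Of 25 genes 13 rose and 1 fell, at a background of 10.1% of all genes called higher and 5.85% called lower. The median change was 1.31 over all arrays and 1.03 within slide 1. Gpt2 changed by 2.45 over all arrays and 1.69 within slide 1, and Pck2 by 1.87 and 1.75. Without control replicate 1, 12 rose and the median was 1.59, at a background of 4.23% of all genes called higher. The 4 largest changes were those of Atf3 (3.29 ± 0.52), Shmt2 (2.71 ± 0.52), Mthfd2 (2.66 ± 0.59) and Slc7a11 (2.61 ± 0.25). Within slide 1 they were 2.58, 2.02, 1.92 and 2.10. With slide as a fixed block only 3 of the 25 genes rose and 1 fell, where 7.27% of all genes were called. Those that rose were Slc7a11, Gpt2 and Pck2. Atf3, Shmt2 and Mthfd2 were not called in that fit (limma, adjusted p = 0.0827, 0.138 and 0.204). Atf3 is a stress-induced transcription factor, Shmt2 and Mthfd2 are enzymes of mitochondrial folate metabolism, and Slc7a11 is the cystine transporter. In Slc7a11 control replicate 1 did not stand apart, with 0.13, 0.18 and 0.06 in control and 2.22, 2.82 and 3.14 with isoproterenol. In Mthfd2 it did, with 4.37, 2.37 and 2.50 in control and 5.0, 6.14 and 6.07 with isoproterenol. Atf4 itself was at 2.97, 1.81 and 1.90 in control and 3.23, 3.67 and 3.70 with isoproterenol, a change of 1.31 ± 0.34 (SE; limma, adjusted p = 0.0459), which within slide 1 was 1.0 (limma, adjusted p = 0.273). The gene that fell was Ddit3, the stress factor known as CHOP, at -0.96 ± 0.16 (SE; limma, adjusted p = 0.0136), and -0.81 within slide 1 (limma, adjusted p = 0.0563). Of the 3 kinases of eIF2alpha tested none passed, and the largest changes were -0.62 for Eif2ak4 and -0.07 for Eif2ak2, or -0.21 and -0.66 within slide 1.

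**Figure D4:**
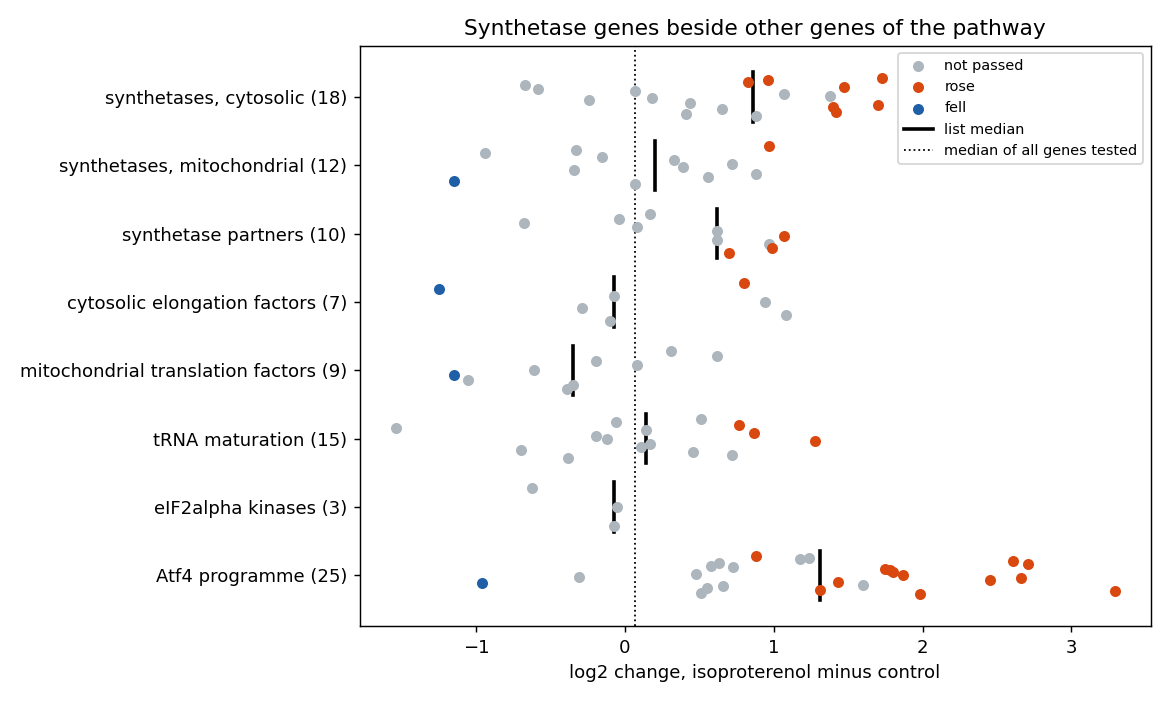
Log2 change of each gene of the 2 synthetase sets and of 6 other lists of the pathway, with the number of genes tested in brackets. Orange genes rose and blue genes fell at an adjusted p under 0.05 by limma, the bar is the list median and the dotted line the median of all genes tested, 0.07. Medians run from -0.35 for mitochondrial translation factors to 0.86 for cytosolic synthetases and 1.31 for the Atf4 programme.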

How the data were processed

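Total RNA of 6 cultures was labelled with Cy3 and scanned on single-colour Agilent arrays. Per the file headers, the deposited scanner intensities were extracted with Agilent Feature Extraction 11.0.1.1, which supplied a background-corrected processed signal per spot, on an array design annotated to rn4. The authors' deposited mRNA table holds log2 values; on each array it ranks matched genes as the scanner signals do, but on the 2 arrays of slide 2 it departs from plain quantile normalization (95th percentile of the difference 0.477 and 0.244), and no source used here names its normalization. All genes matched in it passed the filter used here. Scanner files carry no transcript names, so 20652 of 20734 table rows were matched to probes by value (within 0.05 log2 over the 6 arrays) and 44 by the order of identifiers; all synthetase rows matched by value. RefSeq identifiers were named through assembly GRCr8, which named 13956 of 14757; 5977 Ensembl rows stayed unnamed.

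Main values are log2 of the processed signal, averaged over spots without an outlier mark, minus each array's 75th percentile over non-control probes. A probe was tested when well above background on at least 3 of 6 arrays, and a gene by its brightest probe. Groups were compared with limma 3.58.1 in R 4.3.3 (lmFit and eBayes, two-sided, Benjamini-Hochberg over 19995 genes, threshold 0.05), a script tested on simulated data. "Rose" and "fell" mean past that threshold. Levels of different genes come from different probes and cannot be compared. The normexp alternative (offset 50) used median spot signals, since the files hold no mean signals. Members and gene lists were chosen with earlier results of these data known, so counts are descriptions. Members past the threshold, and the 3 largest changes either way per compartment, were named with values on every array, and up to 4 genes per other list; Atf4, Ddit3, Gpt2, Pck2, Pstk, Hsd17b10 and the markers named were added after their values were seen. One gene of these lists is not reported here. Alternatives covered background correction, scaling, filters, the authors' table, slide and replicate blocks, and each replicate left out; 3 were added after the data were seen. Over the genes tested, same-numbered samples did not deviate together (correlations 0.008, 0.053 and -0.023). This does not settle whether numbers pair the samples, since only isoproterenol replicate 1 shared a slide with the controls.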

Additional observations from a re-analysis of the deposited data

How the results depend on the processing

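Of 21 alternatives, 18 were planned and 3 chosen after seeing the data. The median change of the cytosolic enzymes stayed above 0 in all 21, and ran from 0.59 to 1.1 against 0.86 in the main fit. The pooled SD of the array medians within the groups was 0.29. That spread includes the excess of control replicate 1 and the gap between the slides. The counts of calls moved with the arrays used. Leaving out 1 replicate in turn gave 0 to 11 cytosolic genes called higher and 0 to 2 lower, 0 to 3 mitochondrial genes higher and 0 to 2 lower, and 313 to 10388 of all genes, with a median mitochondrial change of 0.10 to 0.28. The 11 came without isoproterenol replicate 1, and 0 came without control replicate 2 or 3 or isoproterenol replicate 2 or 3; all of these fits used limma.

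All genes called fell from 3180 to 1454 with slide as a fixed block, 2099 with slide as a random block, 1041 on slide 1 alone and 1554 without control replicate 1 with the block. Cytosolic genes called higher numbered 2 with quantile normalization, 3 in the authors' table, 0 with slide as a fixed or random block or on slide 1 alone, and 12 on slide 1 without control replicate 1. One cytosolic gene, Qars1, was called lower with normexp, quantile normalization, scaling on probes detected on all arrays, the filter for detection on all 6 arrays and the authors' table. In these fits 745, 1187, 1961, 1170 and 1304 genes were called lower, of 12307 tested with that filter and 19995 with the others. Mitochondrial genes called higher numbered 3 of the 9 tested with the filter on all 6 arrays, where 3081 of 12307 genes were called higher. They numbered 0 with quantile normalization, scaling on detected probes, the authors' table or slide as a fixed or random block. None was called higher with background-marked spots left out, or without control replicate 1 with the block. Mitochondrial genes called lower numbered 2 with scaling on detected probes, where 1961 of 19995 genes were called lower. They numbered 0 with normexp, median scaling or slide as a fixed block.

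The median mitochondrial change, 0.20, was 0.38 with normexp, 0.33 with the filter on all 6 arrays, 0.10 with slide as a random block, 0.05 with slide as a fixed block or alone, 0.04 with quantile normalization or the authors' table, 0.00 without control replicate 1 in slide 1 or with the block, and -0.04 with scaling on detected probes. The cause of these shifts was not tested.

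Whether replicate numbers pair the samples is not known. With the replicate block 1453 genes were called in all, 0 cytosolic and 0 mitochondrial genes higher, and Cars2 lower (limma, adjusted p = 0.043). Single genes changed sign 38 times over the alternatives, in 9 genes whose change was at most 0.88 in size. In 37 of these changes of sign neither value passed. The other was that of Iars1, at 1.19 on slide 1 without control replicate 1. Low signal over background on slide 2 limits the dim genes Iars1, Pars2, Vars2 and Wars2.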
